A study of Homo sapiens with 6 samples.

Results

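Interferon-stimulated genes are the genes that a cell turns on when interferon reaches its receptor, and 42 of them, chosen by name, were followed here in human triple-negative breast cancer (TNBC) cells treated with SCH, which stands for Salvia chinensis Benth, a plant of traditional Chinese medicine. The 42 genes are among 58735 genes of the deposited table, and all of them were found there under their listed symbols. RNA was sequenced from 6 samples of the MDA-MB-231 cell line, labelled wild type, of which 3 had been kept for 24 h in medium with vehicle and 3 for 24 h in medium with SCH at 100 mg/l. What the vehicle consisted of is not given in the sources used here, all samples come from the same cell line, and nothing in the labels says that they came from separate cultures, so the p-values measure only the spread between these samples. Counts on genes added up to 20291379, 18714240 and 18334857 for vehicle and to 16836369, 17979434 and 18414924 for SCH.

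Type I and type III interferons bind receptors that carry the JAK kinases JAK1 and TYK2, which phosphorylate STAT proteins. STAT2 and IRF9 are part of the resulting factor, ISGF3, which binds the interferon-stimulated response element in the promoters of its target genes. The products of those genes detect viral RNA, block its translation or its copying, hold virions at membranes, or attach the ubiquitin-like protein ISG15 to other proteins. In tumour cells, part of the same set is also expressed without added interferon, and sensing of nucleic acids inside the cell is another route to it.

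The comparison of SCH with vehicle asks how the transcripts of these genes stood after 24 h of treatment. More of them rose than fell: 20 of the 39 genes that could be tested rose, 3 fell (EPSTI1, EIF2AK2 and IFIT5) and 16 did not pass the threshold, an adjusted p under 0.05 in edgeR's quasi-likelihood test, from which every adjusted p given here comes unless another tool is named. IFI6, an interferon-induced inhibitor of cell death, and USP18, the protease that removes ISG15 from proteins, rose the most, by 1.24 and 1.22 on the log2 scale, while EPSTI1 fell by 1.51. These sizes depend on the scale at low levels: limma on log2(FPKM + 1), which compresses them, gave 0.69 for USP18 and −0.38 for EPSTI1, with the same calls. USP18 then ranked below SAMD9, whose lowest value over the alternatives was 0.849. Of all 14736 tested genes, 58.7% changed, 29.3% upward and 29.4% downward, so the share of the interferon-stimulated genes that changed, 59.0%, was near the background. By direction, 51.3% of the interferon-stimulated genes were raised, whereas the calls over all genes were divided about evenly. The list was chosen with earlier results of these data known, so this comparison is a description and not a test. The median log2 fold change of the 39 genes was 0.23, beside −0.0034 over all tested genes, and 26 of the 39 were above 0. In 27 of the 39 genes the groups did not overlap, beside 62.4% of all tested genes. After TMM normalization, only IFI6, USP18 and EPSTI1, 3 of them, changed by 1 or more on the log2 scale, beside 8.77% of all tested genes. SAMD9 reached 1.03 with library size alone.

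This split was read after TMM normalization, which sets the median change of all genes near 0. With library size alone, the median of all tested genes moved by 0.10 on the log2 scale, 5520 genes were raised (37.5%) and 3294 lowered (22.4%), and the interferon-stimulated genes stood at 24 raised and 1 lowered. Relative to the median of all genes, their median was 0.23 under both scalings. A change of scaling moves all genes about alike, so this difference could hardly change and is no check of the split.

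The genes of the list held 0.200%, 0.204% and 0.204% of all counts in the vehicle-treated samples and 0.248%, 0.250% and 0.246% in the SCH-treated samples. The SCH-treated samples were all higher in this share, and the groups did not overlap. The share is of raw total counts, without the TMM factors. Those were 0.961 to 0.971 for vehicle and 1.03 to 1.04 for SCH, which makes the difference smaller on the TMM scale. Taken gene by gene against the mean of the vehicle-treated samples, the median log2 difference of the 39 tested genes was −0.03, 0.00 and 0.00 in the vehicle-treated samples and 0.16, 0.28 and 0.25 in the SCH-treated samples. SCH replicate 1 was the lowest of its group by this measure and still lay above all vehicle-treated samples. The map of log2 differences by sample shows that most raised genes were higher in each of the SCH-treated samples.

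**Figure D1:**
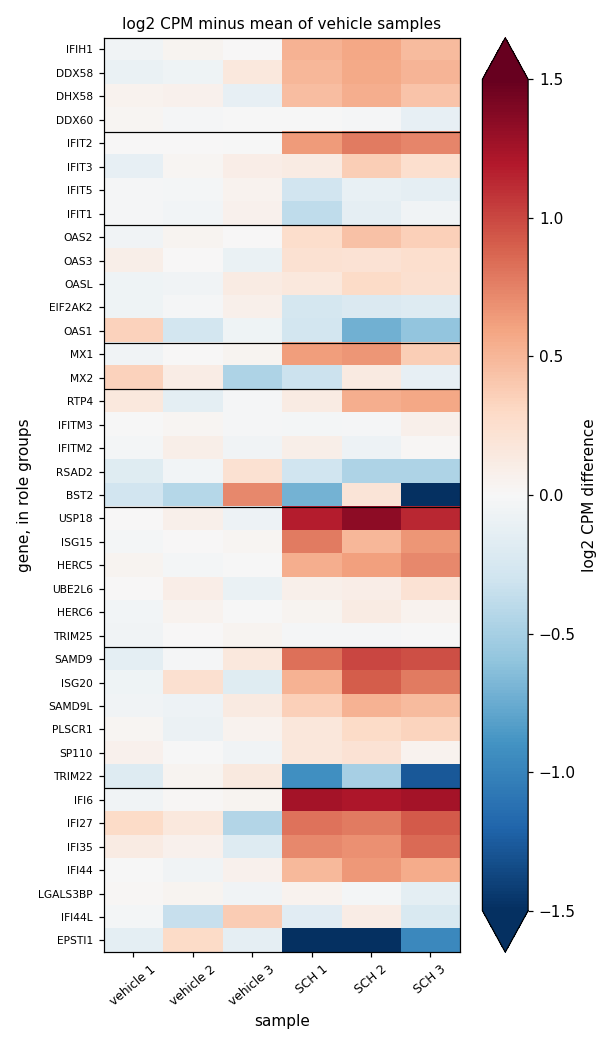
Each row is a tested interferon-stimulated gene and each column a sample, with the colour giving its log2 CPM (the count scaled to library size after TMM normalization) minus the mean log2 CPM of the 3 vehicle-treated samples, and black lines separating the role groups. IFI6, USP18 and SAMD9 are red in all 3 SCH-treated samples, EPSTI1 is blue in all 3, IFITM2, IFITM3 and TRIM25 stay near white, and the colour scale stops at 1.5 in either direction, which EPSTI1 and BST2 pass.

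The response element that ISGF3 binds can be searched for in the promoters. RefSeq windows from 250 bases before to 50 bases after the start site (GRCh38.p14) were found for 34 of the 42 genes, and those of DHX58, IFIT2, OAS2, OASL, MX2, IFITM2, USP18 and TRIM22 were not at hand. The core of the element, GAAA followed by any 2 bases and a second GAAA, searched on both strands with overlapping matches counted separately, was present in 23 of the 34 windows (67.6%), beside 996 of all 27305 promoter windows (3.65%). The STAT core, TTC followed by any 3 bases and GAA, which reads the same on both strands, was in 8 of the 34 (23.5%), beside 2152 of all windows (7.88%). A match of letters is a description and not a binding site. The stretches below show the element in 3 genes that rose, in 2 that did not pass the threshold and in EPSTI1, which fell, to let the letters be set beside the responses. Capitals mark each match of the core or of its reverse complement, TTTC followed by any 2 bases and a second TTTC, and every sequence is read in the direction of its gene.
IFI6 (chr1:27672261-27672363, minus strand): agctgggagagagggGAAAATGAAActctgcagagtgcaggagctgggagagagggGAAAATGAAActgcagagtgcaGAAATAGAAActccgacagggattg
ISG15 (chr1:1013369-1013414, plus strand): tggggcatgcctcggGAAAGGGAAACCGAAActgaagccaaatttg
SAMD9 (chr7:93118091-93118130, minus strand): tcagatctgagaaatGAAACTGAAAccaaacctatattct
IFIT1 (chr10:89392492-89392544, plus strand): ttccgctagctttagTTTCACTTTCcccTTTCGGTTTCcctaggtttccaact
IFITM3 (chr11:320871-320927, minus strand): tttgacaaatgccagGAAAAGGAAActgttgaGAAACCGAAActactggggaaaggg
EPSTI1 (chr13:42992267-42992306, minus strand): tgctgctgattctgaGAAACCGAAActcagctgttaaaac

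In IFI6 the core occurred 3 times, the first match beginning 156 bases before the start site. The 2 matches of ISG15 overlap, the first beginning 113 bases before the start site. The stretches of ISG15 and IFITM3 lie inside the longer spans that the deposited table gives these genes. Genes that rose and genes that did not pass were found both with and without the core. The counts that follow stand beside 58.7% of all tested genes changed, 29.3% upward and 29.4% downward. Among the 22 tested genes with a match, 12 rose, 3 fell and 7 did not pass, with a median log2 fold change of 0.26. Among the 9 tested genes with a window but no match, 3 rose (DDX58, SAMD9L and IFI35), 0 fell and 6 did not pass, with a median of 0.13. All 3 genes that fell, EPSTI1, EIF2AK2 and IFIT5, had a match. IFIT1, with 2 matches, and IFITM3, also with 2, did not pass the threshold. For the STAT core the medians ran the other way. Of the 7 tested genes with it, 3 rose, 1 fell and 3 did not pass, with a median of −0.05. Of the 24 without it, 12 rose, 2 fell and 10 did not pass, with a median of 0.24. Whether either core bears on the response was not tested.

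Among the sensors of viral RNA, 3 of 4 rose and the other, DDX60, did not pass the threshold, with a median log2 fold change of 0.50. The 75.0% changed, all of it upward, stands beside 58.7% of all tested genes changed and 29.3% raised. DDX58, the gene of the cytosolic RNA sensor RIG-I, was measured at 43.8, 44.9 and 52.1 CPM in the vehicle-treated samples and 65.8, 69.3 and 66.5 CPM in the SCH-treated samples. The SCH-treated samples lay higher and the groups did not overlap, a rise of 0.52 on the log2 scale (SE 0.067, adjusted p = 5e-07). IFIH1, the gene of MDA5, which detects long double-stranded RNA, rose by 0.52 on the log2 scale (SE 0.094, adjusted p = 4.45e-05). DHX58, whose product LGP2 modulates both sensors, rose by 0.47 on the log2 scale (SE 0.13, adjusted p = 0.00292). These are rises of 1.39- to 1.44-fold. DDX60, a related helicase, stood at 31.5, 30.6 and 30.7 CPM in the vehicle-treated samples and 30.8, 30.6 and 28.4 CPM in the SCH-treated samples, where the groups overlapped (log2 fold change −0.05, SE 0.071, adjusted p = 0.577).

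The IFIT genes encode proteins that bind foreign RNA, and all 4 lie in a cluster on chromosome 10, between 89283694 and 89421001 on GRCh38. They did not move together: IFIT2 and IFIT3 rose, IFIT5 fell and IFIT1 did not pass the threshold. IFIT2, which promotes cell death when it is not bound to IFIT3, was measured at 57.0, 56.9 and 56.8 CPM in the vehicle-treated samples and 88.9, 98.0 and 94.2 CPM in the SCH-treated samples. The vehicle-treated samples were nearly equal, every SCH-treated sample was far above them, and the change was 0.72 on the log2 scale (SE 0.057, adjusted p = 1.9e-10). IFIT3, which stabilizes IFIT1, was at 76.4, 84.6 and 88.7 CPM in the vehicle-treated samples and 90.6, 107 and 98.8 CPM in the SCH-treated samples. Its groups did not overlap, although SCH replicate 1 was close to the highest vehicle-treated sample (log2 fold change 0.25, SE 0.065, adjusted p = 0.00215).

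IFIT1, whose product binds RNA with an incomplete cap, was at 32.6, 32.1 and 34.5 CPM in the vehicle-treated samples and 25.4, 30.2 and 31.8 CPM in the SCH-treated samples. Each SCH-treated sample was lower, replicate 1 the lowest, and the difference did not pass the threshold (log2 fold change −0.18, SE 0.08, adjusted p = 0.0551), though it did with the replicate block, with upper quartile normalization, with at least 10 counts in every sample and without SCH replicate 3 (adjusted p = 0.027 to 0.049). For IFIT5, a sensor of RNA with a 5′ triphosphate, the values were 50.2, 50.01 and 52.9 CPM in the vehicle-treated samples and 41.8, 47.2 and 46.6 CPM in the SCH-treated samples. The SCH-treated samples were lower without overlap, a fall of 0.17 on the log2 scale (SE 0.065, adjusted p = 0.0259), but the adjusted p was between 0.052 and 0.16 when vehicle replicate 1, vehicle replicate 3 or SCH replicate 1 was left out, 0.074 when no gene was filtered out, and 0.36 with library size alone.

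Of the OAS genes and EIF2AK2, 3 rose, 1 fell and 1 did not pass. Thus 80.0% changed and 60.0% rose, beside 58.7% and 29.3% of all tested genes. The OAS enzymes make the oligoadenylates that activate RNase L, and OAS1, OAS3 and OAS2 lie side by side on chromosome 12, between 112906777 and 113011723. OAS2 was at 15.6, 16.7 and 16.3 CPM in the vehicle-treated samples and 19.4, 21.9 and 20.6 CPM in the SCH-treated samples, with all SCH-treated samples higher (log2 fold change 0.35, SE 0.086, adjusted p = 0.0012). OAS3 was at 69.7, 65.6 and 61.3 CPM in the vehicle-treated samples and 76.9, 76.1 and 77.8 CPM in the SCH-treated samples, with the SCH-treated samples close together above the vehicle-treated ones (log2 fold change 0.23, SE 0.059, adjusted p = 0.00178). OASL, which lacks the enzyme activity and aids RIG-I, was at 39.3, 39.7 and 44.6 CPM in the vehicle-treated samples and 45.8, 50.1 and 48.5 CPM in the SCH-treated samples. Its rise was 0.23 on the log2 scale (SE 0.068, adjusted p = 0.00661), and the groups were separate by a small margin.

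OAS1 went the other way in its values, 2.92, 1.89 and 2.19 CPM in the vehicle-treated samples and 1.89, 1.39 and 1.52 CPM in the SCH-treated samples, on 26 to 57 counts a sample. The highest SCH-treated sample fell just short of the lowest vehicle-treated one, and the difference of −0.55 on the log2 scale (SE 0.25, adjusted p = 0.0589) did not pass, but did with upper quartile normalization, with at least 10 counts in every sample, without vehicle replicate 2 and without SCH replicate 1 (adjusted p = 0.037 to 0.049). EIF2AK2, the gene of the kinase PKR, which halts translation when it binds double-stranded RNA, was at 81.1, 83.7 and 89.6 CPM in the vehicle-treated samples and 70.8, 73.0 and 74.1 CPM in the SCH-treated samples. The groups were separate, with SCH lower, a fall of 0.22 on the log2 scale (SE 0.057, adjusted p = 0.00175), which did not pass with library size alone (adjusted p = 0.076).

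The MX genes encode dynamin-like GTPases that trap viral nucleoproteins. MX1 rose, with values of 11.0, 11.3 and 11.7 CPM in the vehicle-treated samples and 17.5, 17.9 and 14.6 CPM in the SCH-treated samples. SCH replicate 3 was the lowest of its group but above all vehicle-treated samples (log2 fold change 0.56, SE 0.10, adjusted p = 5.03e-05). MX2 was at 2.56, 2.17 and 1.46 CPM in the vehicle-treated samples and 1.60, 2.20 and 1.84 CPM in the SCH-treated samples, where the groups overlapped widely (log2 fold change −0.14, SE 0.25, adjusted p = 0.66).

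Of the 7 genes grouped as membrane restriction, a loose heading that also takes in RTP4 and CMPK2, 5 were tested. None of these passed the threshold in edgeR with TMM and all samples, in DESeq2 or in limma on FPKM. Nor had any an unadjusted p under 0.05 in that edgeR fit, where 58.7% of all tested genes changed. The median log2 fold change of the 5 was 0.01. In other edgeR fits, IFITM3 passed with library size alone (0.12, adjusted p = 0.042). BST2 passed without SCH replicate 2 (−1.37, adjusted p = 0.043). IFITM3, which blocks the fusion of viral envelopes, was among the most abundant of all genes of the list, at 136 ± 2.10 FPKM (SD, n = 3) in vehicle and 138 ± 4.84 FPKM (SD, n = 3) after SCH (FPKM, the count per length and depth, allows levels to be compared between genes). Its counts were 188, 192 and 187 CPM in the vehicle-treated samples and 186, 187 and 199 CPM in the SCH-treated samples, with overlapping groups (log2 fold change 0.01, SE 0.049, adjusted p = 0.845). IFITM2 likewise overlapped, at 47.0, 50.7 and 46.0 CPM in the vehicle-treated samples and 50.7, 45.3 and 48.6 CPM in the SCH-treated samples (log2 fold change 0.01, SE 0.066, adjusted p = 0.913). The standard errors of these 2 genes, 0.049 and 0.066, were of the size of those of genes that rose.

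RSAD2, the gene of viperin, which makes a chain-terminating nucleotide, was at 2.41, 2.67 and 3.20 CPM in the vehicle-treated samples and 2.23, 1.98 and 1.995 CPM in the SCH-treated samples. The SCH-treated samples were lower without overlap, on 37 to 57 counts a sample, and the difference of −0.41 on the log2 scale (SE 0.21, adjusted p = 0.103) did not pass. BST2, the tether of virions, was at 3 to 22 counts a sample and overlapped (log2 fold change −0.70, SE 0.47, adjusted p = 0.215). RTP4, a chaperone of receptors, was at 12 to 21 counts and overlapped (log2 fold change 0.42, SE 0.33, adjusted p = 0.284). IFITM1 and CMPK2 had too few counts to be tested, 2 to 6 and 1 to 11 a sample.

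**Figure D2:**
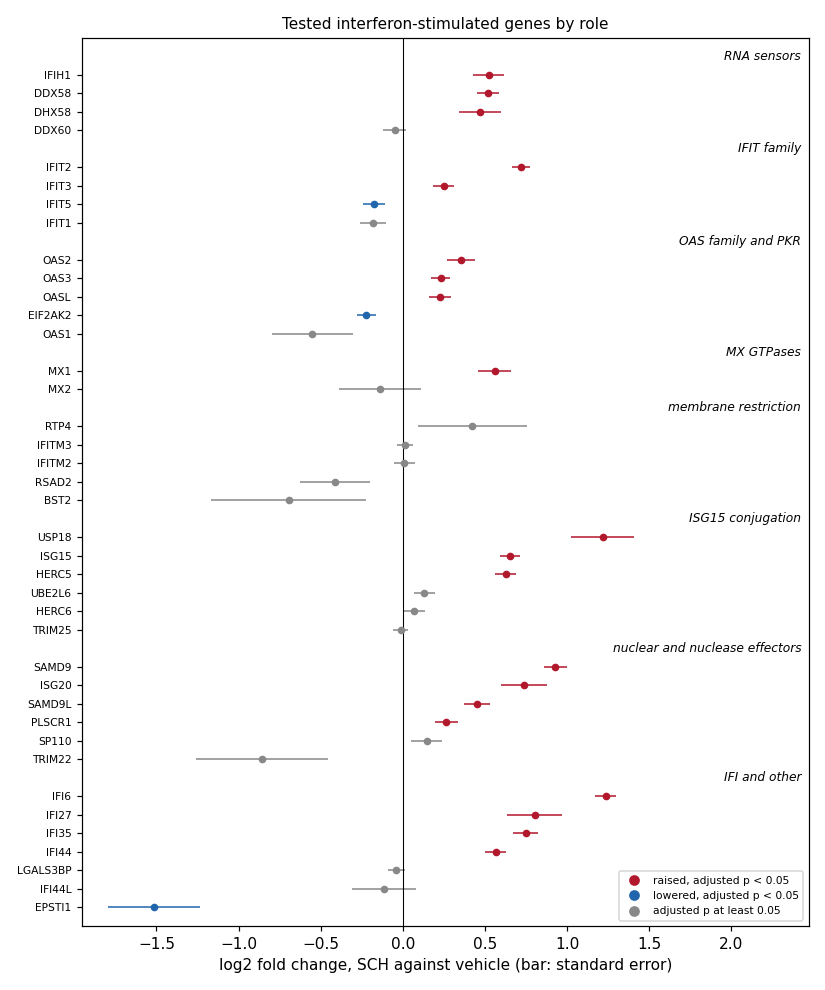
Points are the log2 fold changes of the 39 tested interferon-stimulated genes, SCH against vehicle, with bars of 1 standard error, arranged by role and coloured by the edgeR call. Each group but the membrane restriction genes holds raised genes, and the 3 lowered genes sit in the IFIT group, the OAS and PKR group and the last group.

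ISG15 is attached to proteins by UBE2L6, its conjugating enzyme, and HERC5, its ligase, and is taken off by USP18. Of the 6 genes of this cycle, 3 rose, the modifier, the ligase and the protease, and 3 did not pass the threshold, the conjugating enzyme among them. The 3 of 6 changed, all upward, lay below the 58.7% of all tested genes changed and above the 29.3% raised. The median log2 fold change of the group was 0.38. ISG15 was measured at 82.4, 84.3 and 85.5 CPM in the vehicle-treated samples and 145, 119 and 133 CPM in the SCH-treated samples. All SCH-treated samples were higher, replicate 2 the lowest of them (log2 fold change 0.65, SE 0.062, adjusted p = 3.82e-09). HERC5 rose by 0.63 on the log2 scale (SE 0.061, adjusted p = 6.75e-09). USP18, which also holds back signalling at the interferon receptor, was at 1.84, 1.95 and 1.74 CPM in the vehicle-treated samples and 4.18, 4.66 and 4.04 CPM in the SCH-treated samples. The SCH-treated samples were more than double the vehicle-treated ones on 31 to 87 counts a sample (log2 fold change 1.22, SE 0.19, adjusted p = 9.54e-06).

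UBE2L6 (log2 fold change 0.13, SE 0.062, adjusted p = 0.0742), HERC6, a relative of HERC5 (log2 fold change 0.07, SE 0.068, adjusted p = 0.397), and TRIM25, a ubiquitin ligase that activates RIG-I (log2 fold change −0.01, SE 0.047, adjusted p = 0.824), did not pass the threshold. UBE2L6 and HERC6 passed it with library size alone, as did IFITM3 and SP110, and UBE2L6 also passed without vehicle replicate 2 (adjusted p = 0.028) and without SCH replicate 1 (adjusted p = 0.041).

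Of the nuclear and nuclease effectors, 4 of the 6 tested rose and 2 did not pass the threshold, with a median log2 fold change of 0.36. The 66.7% changed was near the 58.7% of all tested genes, and the 66.7% raised stands beside 29.3%. SAMD9, which restricts poxviruses and lies on chromosome 7, 93099513 to 93118023, was at 45.3, 49.2 and 55.9 CPM in the vehicle-treated samples and 88.3, 100.0 and 97.8 CPM in the SCH-treated samples. The groups were far apart, with SCH higher (log2 fold change 0.93, SE 0.07, adjusted p = 7.6e-11). Its neighbour SAMD9L rose by less, 0.45 on the log2 scale (SE 0.078, adjusted p = 2.86e-05). ISG20, an exonuclease that degrades single-stranded RNA, rose by 0.74 on the log2 scale (SE 0.14, adjusted p = 0.000108), and PLSCR1, a phospholipid scramblase with antiviral activity, by 0.27 on the log2 scale (SE 0.072, adjusted p = 0.0028). SP110, a nuclear body protein (log2 fold change 0.15, SE 0.095, adjusted p = 0.194), and TRIM22, a ubiquitin ligase with 6 to 15 counts a sample (log2 fold change −0.86, SE 0.40, adjusted p = 0.0718), did not pass. XAF1, a promoter of apoptosis, was not tested, at 6 to 11 counts.

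The last group holds genes named for their induction by interferon and others. Of its 7 genes, 4 rose, EPSTI1 fell and 2 did not pass. That is 71.4% changed and 57.1% raised, beside 58.7% and 29.3% of all tested genes. IFI6, on chromosome 1, 27666061 to 27672218, was measured at 25.4, 26.6 and 27.1 CPM in the vehicle-treated samples and 62.6, 61.4 and 62.6 CPM in the SCH-treated samples. Replicates were close in both groups and the SCH-treated samples were 2.36-fold higher (log2 fold change 1.24, SE 0.064, adjusted p = 1.59e-13), the smallest p of the list. IFI27 was at 4.56, 4.17 and 2.75 CPM in the vehicle-treated samples and 6.58, 6.43 and 7.09 CPM in the SCH-treated samples. Vehicle replicate 3 was lower than the other two, and all SCH-treated samples were above every vehicle-treated one (log2 fold change 0.80, SE 0.17, adjusted p = 0.000242). IFI35, a partner of NMI, was at 29.4, 28.4 and 23.7 CPM in the vehicle-treated samples and 44.5, 43.4 and 48.9 CPM in the SCH-treated samples, again without overlap (log2 fold change 0.75, SE 0.079, adjusted p = 2.39e-08).

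IFI44 rose by 0.56 on the log2 scale (SE 0.065, adjusted p = 9.64e-08), while its neighbour IFI44L, at 51 to 84 counts a sample, overlapped (log2 fold change −0.12, SE 0.20, adjusted p = 0.639). EPSTI1, a gene first found in epithelial cells grown with stroma, was at 2.51, 3.39 and 2.53 CPM in the vehicle-treated samples and 0.859, 0.643 and 1.42 CPM in the SCH-treated samples. All SCH-treated samples were lower, replicate 3 the highest of them, on 12 to 61 counts a sample (log2 fold change −1.51, SE 0.28, adjusted p = 6.09e-05). LGALS3BP, a secreted glycoprotein that binds galectins, had the highest level of the list, 157 ± 5.49 FPKM (SD, n = 3) in vehicle and 153 ± 11.1 FPKM (SD, n = 3) after SCH. Its counts of 586, 598 and 559 CPM in the vehicle-treated samples and 603, 568 and 525 CPM in the SCH-treated samples overlapped (log2 fold change −0.04, SE 0.051, adjusted p = 0.535).

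The raised genes had mean levels of 0.709 to 86.5 FPKM in vehicle. Of the tested genes, 8 lay below that range and 2 above it, LGALS3BP and IFITM3. The raised genes themselves set the range, so it does not show that level decided the response. Among the raised genes, ISG15 was the most abundant, at 86.5 ± 1.59 FPKM (SD, n = 3) in vehicle and 137 ± 13.6 FPKM (SD, n = 3) after SCH. IFI6 was at 29.5 ± 0.953 FPKM (SD, n = 3) in vehicle and 69.9 ± 0.858 FPKM (SD, n = 3) after SCH, close to IFIT3 in vehicle and above it after SCH. Those at the low end were ISG20, at 0.709 ± 0.112 FPKM (SD, n = 3) in vehicle and 1.19 ± 0.158 FPKM (SD, n = 3) after SCH, and USP18, at 0.838 ± 0.0475 FPKM (SD, n = 3) in vehicle and 1.96 ± 0.150 FPKM (SD, n = 3) after SCH. In the plot of SCH against vehicle levels, the genes furthest below the diagonal, EPSTI1, TRIM22, BST2, OAS1 and RSAD2, were all under 1 FPKM in both groups.

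**Figure D3:**
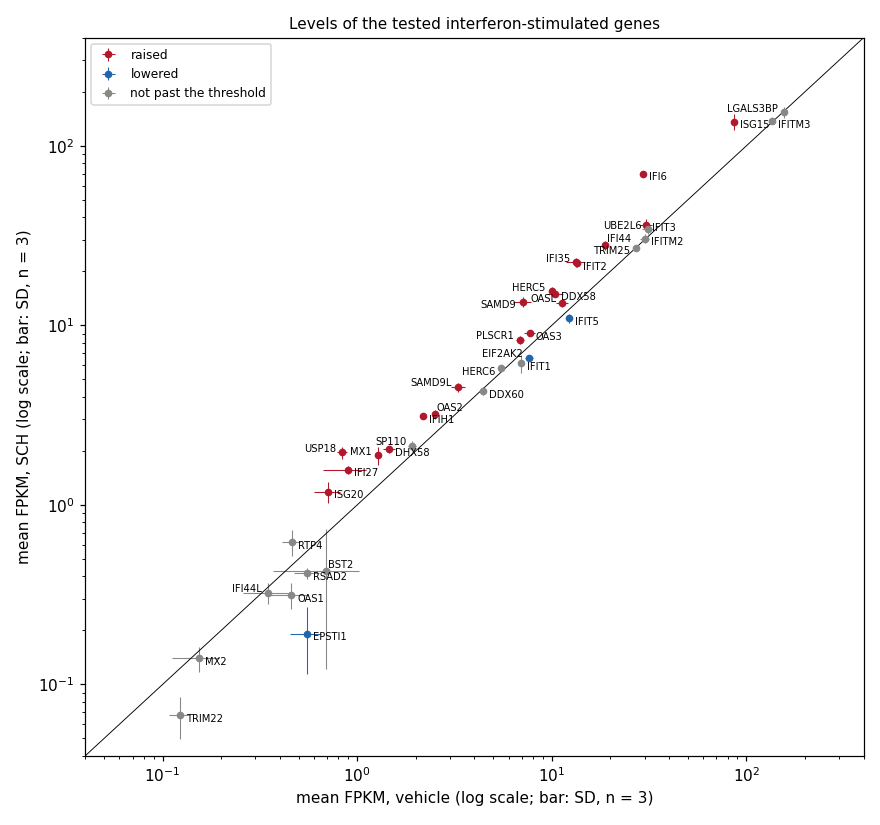
Each point is a tested interferon-stimulated gene, with its mean FPKM in vehicle on the horizontal axis and after SCH on the vertical axis, both on a log scale, and bars of 1 SD (n = 3). Genes above the diagonal were higher after SCH: IFI6 and ISG15 stand off it at high levels, whereas IFITM3 and LGALS3BP, the most abundant, lie on it.

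Several families have members that lie close together, and their ratio within a sample gives a comparison that does not depend on the scaling between samples. For 10 pairs, chosen after the values were seen, the ratio of CPM was taken in each sample. IFIT2 to IFIT1 was 1.72 ± 0.0686 in the vehicle-treated samples and 3.24 ± 0.266 in the SCH-treated samples (mean ± SD, n = 3). IFIT3 to IFIT1 was 2.52 ± 0.153 in the vehicle-treated samples and 3.41 ± 0.258 in the SCH-treated samples. In both, every SCH-treated sample was above every vehicle-treated one. IFIT5 to IFIT1, by contrast, was 1.54 ± 0.0135 in the vehicle-treated samples and 1.56 ± 0.0883 in the SCH-treated samples, with overlap.

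OAS2 to OAS1 was 7.20 ± 1.76 in the vehicle-treated samples and 13.2 ± 2.73 in the SCH-treated samples, and OAS3 to OAS1 was 28.9 ± 5.47 in the vehicle-treated samples and 48.8 ± 7.22 in the SCH-treated samples. SAMD9 to SAMD9L was 2.06 ± 0.106 in the vehicle-treated samples and 2.87 ± 0.0303 in the SCH-treated samples, and HERC5 to HERC6 was 1.498 ± 0.0826 in the vehicle-treated samples and 2.20 ± 0.155 in the SCH-treated samples. The groups did not overlap in these pairs, nor in IFI44 to IFI44L. MX1 to MX2, at 5.84 ± 1.93 in the vehicle-treated samples and 9.02 ± 1.66 in the SCH-treated samples, and IFITM2 to IFITM3, at 0.253 ± 0.00914 in the vehicle-treated samples and 0.253 ± 0.0170 in the SCH-treated samples, overlapped. The 7 pairs without overlap each gave p = 0.1 in an exact two-sided permutation test of the log2 ratio, the smallest that 3 samples against 3 can give, and 0.143 after Benjamini-Hochberg adjustment over the 10 pairs. In IFIT2 to IFIT1 and OAS2 to OAS1 another listed family member lies between the genes, and the span of IFITM1 lies inside that of IFITM2. Among all pairs of adjacent tested genes, 59.5% of 14708 had ratios that did not overlap.

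**Figure D4:**
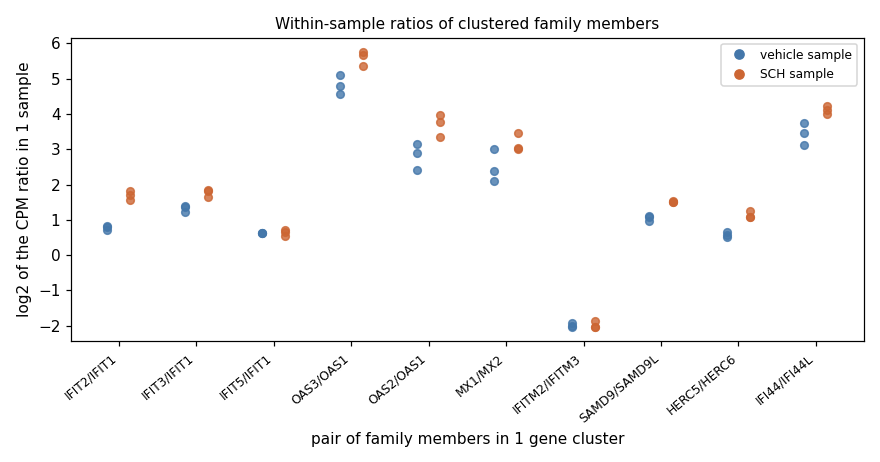
Points are single samples, blue for vehicle and orange for SCH, and the vertical axis is the log2 of the CPM ratio of 2 family members of the same gene cluster in that sample. The SCH-treated samples lie above the vehicle-treated ones in 7 of the 10 pairs and overlap them in IFIT5/IFIT1, MX1/MX2 and IFITM2/IFITM3.

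Genes of interferon production, signalling and related pathways were read from the same fit. Of the 10 interferon ligand genes, IFNB1 and 8 others had 0 counts in all 6 samples, where a count of 0 allows up to 3 counts, or 0.154 to 0.172 CPM. The exception was IFNL1, a type III interferon, with 0, 1 and 1 counts in the vehicle-treated samples and 5, 4 and 4 in the SCH-treated samples. All SCH-treated samples were higher, but with 2 counts in all against 13 the gene was not tested. The ratio of the summed counts was 7.002 after adjustment for the total counts, without the TMM factors. Its exact 95% interval of 1.59 to 63.9 covers counting error only.

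At the receptors and their JAK kinases, 6 of 8 tested genes (75.0%, beside 29.3% of all tested genes) rose and 2 did not pass, with a median log2 fold change of 0.38. One of the 6, JAK2, did not pass in DESeq2 (adjusted p = 0.068) or without vehicle replicate 1, vehicle replicate 2 or SCH replicate 3 (0.061 to 0.086). IFNAR1, a chain of the type I receptor, was at 55.1, 53.0 and 56.5 CPM in the vehicle-treated samples and 71.1, 69.0 and 68.2 CPM in the SCH-treated samples, without overlap (log2 fold change 0.34, SE 0.058, adjusted p = 2.49e-05). JAK1 was at 135, 138 and 145 CPM in the vehicle-treated samples and 205, 198 and 199.7 CPM in the SCH-treated samples, with all SCH-treated samples higher (log2 fold change 0.53, SE 0.049, adjusted p = 3.16e-09). TYK2 was at 128, 130.1 and 112 CPM in the vehicle-treated samples and 188, 184 and 177 CPM in the SCH-treated samples, also without overlap (log2 fold change 0.57, SE 0.057, adjusted p = 7.76e-09). IFNAR2, the other chain of that receptor, was at 0.922, 0.612 and 1.35 CPM in the vehicle-treated samples and 0.916, 1.39 and 0.998 CPM in the SCH-treated samples, on 11 to 26 counts a sample, and overlapped (log2 fold change 0.20, SE 0.34, adjusted p = 0.627). Of its exonic bases 83.2% are shared with the read-through gene AP000295.1 or with IL10RB-DT, so that its count is uncertain.

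Of the STAT and IRF factors reported here, all 8 rose, beside 29.3% of all tested genes, with a median log2 fold change of 0.64. STAT2 was at 46.5, 50.3 and 47.4 CPM in the vehicle-treated samples and 90.0, 86.9 and 86.8 CPM in the SCH-treated samples, and its groups were tight and separate (log2 fold change 0.87, SE 0.058, adjusted p = 9.41e-12). IRF9 was at 0.768, 0.890 and 0.842 CPM in the vehicle-treated samples and 1.77, 1.501 and 0.998 CPM in the SCH-treated samples, on 15 to 31 counts a sample, with SCH replicate 3 close to the vehicle-treated samples (log2 fold change 0.76, SE 0.31, adjusted p = 0.0405), and 48.4% of its exonic bases are shared with the read-through gene AL136295.5, which leaves its count uncertain. IRF9 did not pass in DESeq2 (adjusted p = 0.1002), without the filter on low counts (0.054) or when any 1 sample other than SCH replicate 3 was left out (0.065 to 0.18).

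IRF7, which amplifies interferon production and is itself an interferon-stimulated gene, had the largest change of the factors. It was at 20.4, 18.5 and 19.5 CPM in the vehicle-treated samples and 85.3, 85.8 and 85.6 CPM in the SCH-treated samples, 4.39-fold higher after SCH (log2 fold change 2.14, SE 0.065, adjusted p = 1.22e-17). IRF1 was at 28.3, 33.0 and 27.7 CPM in the vehicle-treated samples and 42.6, 42.5 and 42.2 CPM in the SCH-treated samples, without overlap (log2 fold change 0.52, SE 0.073, adjusted p = 1.92e-06). IRF3, which starts transcription of IFNB1 once phosphorylated, was at 132, 138 and 118 CPM in the vehicle-treated samples and 162, 151 and 145 CPM in the SCH-treated samples, and its groups were separate (log2 fold change 0.24, SE 0.059, adjusted p = 0.00127).

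**Figure D5:**
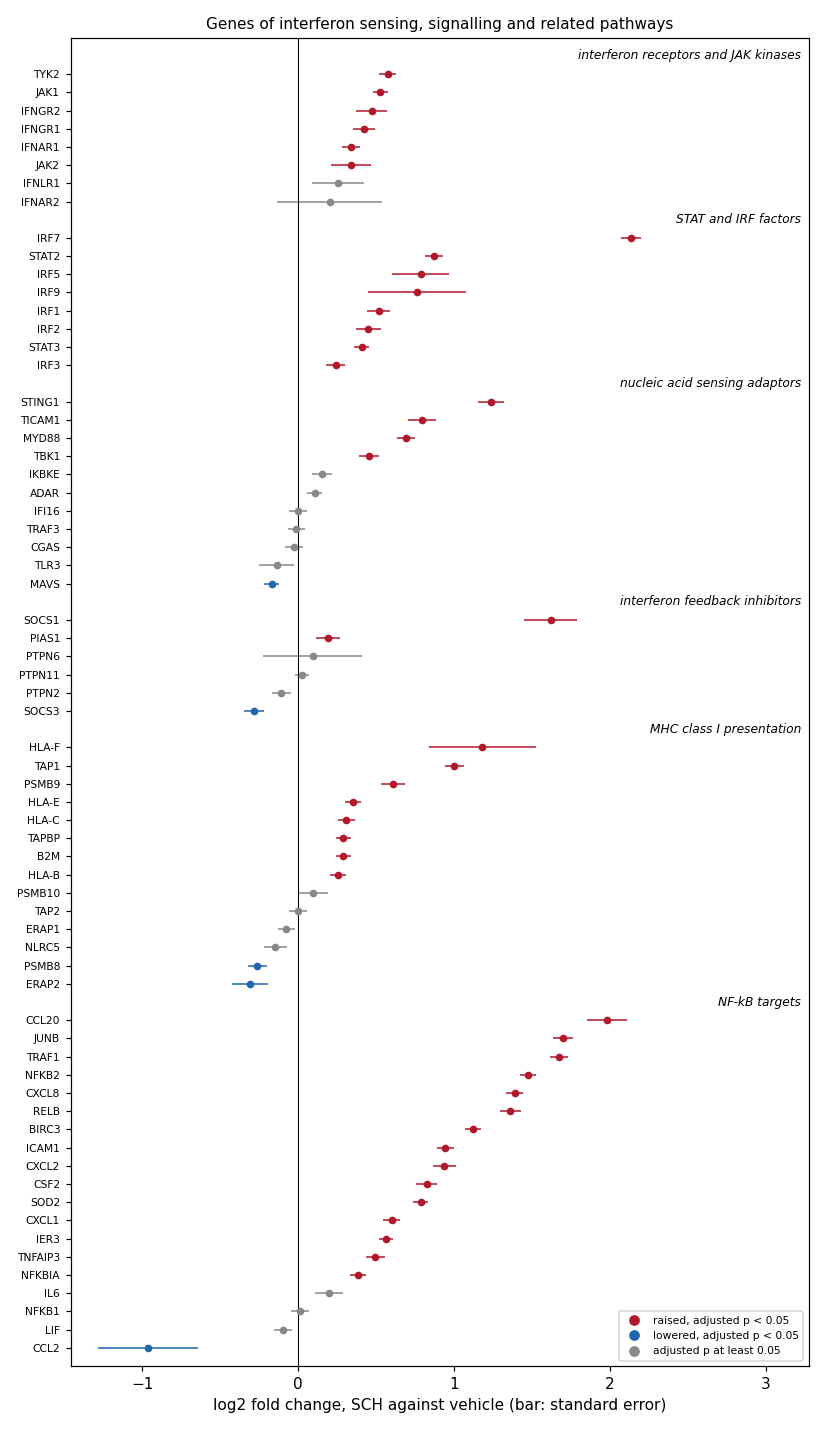
Points are the log2 fold changes of the reported tested genes of 6 pathway lists, SCH against vehicle, with bars of 1 standard error and the colour of the edgeR call. All 8 STAT and IRF factors shown and 15 of 19 NF-kB targets are raised, whereas the sensing adaptors and the feedback inhibitors are divided.

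Among the adaptors of nucleic acid sensing, 4 of 11 tested genes rose and 1 fell, with a median log2 fold change of 0.11, and the 36.4% raised was near the 29.3% of all tested genes. STING1, the adaptor for DNA sensed by CGAS, was at 19.4, 19.1 and 17.1 CPM in the vehicle-treated samples and 49.4, 40.8 and 41.0 CPM in the SCH-treated samples. All SCH-treated samples were more than double the vehicle-treated ones (log2 fold change 1.24, SE 0.084, adjusted p = 1.53e-11). CGAS itself was at 80.1, 73.2 and 86.4 CPM in the vehicle-treated samples and 78.4, 77.8 and 79.0 CPM in the SCH-treated samples, with overlap (log2 fold change −0.03, SE 0.06, adjusted p = 0.728). MYD88, the adaptor of Toll-like receptors, was at 49.7, 49.5 and 47.4 CPM in the vehicle-treated samples and 75.3, 80.2 and 81.3 CPM in the SCH-treated samples, without overlap (log2 fold change 0.69, SE 0.059, adjusted p = 6.18e-10).

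MAVS, the adaptor of RIG-I and MDA5, was at 211, 208 and 202 CPM in the vehicle-treated samples and 187, 181 and 185 CPM in the SCH-treated samples. Here the SCH-treated samples were lower, a fall of 0.17 on the log2 scale (SE 0.048, adjusted p = 0.00411), which was 0.065 and did not pass with library size alone (adjusted p = 0.24). TICAM1 and TBK1 were the other two genes that rose. TREX1, a DNA exonuclease, had 0 counts in all samples, and all of its exonic bases are shared with ATRIP, so that no level can be read for it.

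Of 6 inhibitors that act back on interferon signalling, SOCS1 and PIAS1 rose and SOCS3 fell, with a median log2 fold change of 0.06, and the 33.3% raised was likewise near the 29.3% of all tested genes. PIAS1 did not pass in DESeq2 (adjusted p = 0.070) or limma (0.11 and 0.12). SOCS1, which inhibits the JAK kinases, was at 2.61, 2.67 and 1.80 CPM in the vehicle-treated samples and 7.16, 6.70 and 7.98 CPM in the SCH-treated samples. Every SCH-treated sample was far above the vehicle-treated ones (log2 fold change 1.62, SE 0.17, adjusted p = 2.54e-08). SOCS3, which acts mainly on receptors of the IL-6 type, was at 76.8, 78.6 and 81.5 CPM in the vehicle-treated samples and 69.4, 58.4 and 67.3 CPM in the SCH-treated samples. Without overlap, the SCH-treated samples were lower, a fall of 0.28 on the log2 scale (SE 0.064, adjusted p = 0.000587).

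MHC class I presentation is induced by interferon as well, and 8 of 14 of its genes rose and 2 fell, ERAP2 and PSMB8, with a median log2 fold change of 0.27. The 57.1% raised and 71.4% called stand beside 29.3% and 58.7% of all tested genes. The fall of ERAP2 did not pass with library size alone (adjusted p = 0.14), in DESeq2 (0.058) or limma (0.080 and 0.091), or without vehicle replicate 3, SCH replicate 1 or SCH replicate 3 (0.071 to 0.18). TAP1, which carries peptides into the endoplasmic reticulum, was at 69.7, 69.3 and 60.0 CPM in the vehicle-treated samples and 137, 133 and 129.6 CPM in the SCH-treated samples, without overlap (log2 fold change 1.00, SE 0.06, adjusted p = 1.46e-12). PSMB9, a subunit of the immunoproteasome that cuts proteins into such peptides, was at 22.0, 22.3 and 19.5 CPM in the vehicle-treated samples and 31.9, 33.4 and 31.8 CPM in the SCH-treated samples, again without overlap (log2 fold change 0.61, SE 0.077, adjusted p = 3.95e-07). Reads of class I heavy chain genes can be shared among near copies, so their single values are uncertain.

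The NF-kB pathway shares several targets with interferon signalling. Of its 19 tested target genes, 15 rose (78.9%, beside 29.3% of all tested genes) and 1, CCL2, fell, with a median log2 fold change of 0.82 beside 0.23 for the interferon-stimulated genes. TRAF1, an adaptor of TNF receptors, was at 36.0, 35.8 and 34.3 CPM in the vehicle-treated samples and 114, 112 and 113 CPM in the SCH-treated samples (log2 fold change 1.68, SE 0.057, adjusted p = 8.97e-17). NFKB2, a subunit of NF-kB, was at 145, 149 and 135 CPM in the vehicle-treated samples and 418, 392 and 383 CPM in the SCH-treated samples (log2 fold change 1.47, SE 0.052, adjusted p = 1.54e-16). In both genes the groups were far apart. CCL2, on 10 to 37 counts a sample, did not pass without vehicle replicate 3 (adjusted p = 0.069) or without SCH replicate 1 (0.072).

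The labelled cell type was checked against its markers. VIM, AXL, CD44, FOSL1, KRT18 and EGFR, known for this mesenchymal line, were all expressed, between 35.7 and 293 FPKM as group means, while ESR1 and PGR, the hormone receptors that TNBC lacks, and the epithelial cadherin gene CDH1 were at or near 0. ERBB2, which is not amplified in TNBC, was at 6.67 and 8.22 FPKM and GATA3, a luminal factor, at 3.84 and 2.24 FPKM as means of vehicle and SCH. AXL, KRT18, FOSL1, VIM and EGFR fell after SCH, by 0.28 to 0.84 on the log2 scale, and their part in the changes of the interferon-stimulated genes was not tested. In bulk samples, fewer cells of a type and less RNA per cell cannot be told apart. Of 5 leukocyte markers, 3 could be tested, and PTPRC and LAPTM5 fell, while CD14 did not pass (log2 fold change 0.27, adjusted p = 0.544). The summed level of the 5 was 26.0, 29.4 and 26.0 CPM in the vehicle-treated samples and 20.6, 18.8 and 18.2 CPM in the SCH-treated samples. Most of it came from LAPTM5. PTPRC had 39, 37 and 34 counts in the vehicle-treated samples and 4, 9 and 3 in the SCH-treated samples. CD14 had 8 to 21 counts a sample, and CD3E and TYROBP had 0 or 1. The part of leukocyte RNA in the changes of the interferon-stimulated genes was not tested.

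The 4 markers of plasmacytoid dendritic cells, the main producers of interferon in blood, summed to between 0.556 and 0.730 CPM in every sample, with CLEC4C at 0 throughout. Of the 5 fibroblast markers, COL1A1 was the most abundant and rose (log2 fold change 0.76, SE 0.14, adjusted p = 4.26e-05), with sums of 5.63, 4.56 and 4.77 CPM in vehicle and 8.42, 8.68 and 7.72 CPM after SCH, while DCN was at 0 in all samples and COL1A2, LUM and PDGFRA at 0 in all SCH-treated samples. The part of COL1A1-expressing cells was not tested. The 4 endothelial markers summed to 7.83 to 10.4 CPM, mostly KDR, and the 2 that could be tested, PECAM1 and KDR, did not pass the threshold.

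Shared sequence limits a few genes of the list. The exonic bases shared with other genes were 38.3% for XAF1, 32.5% for IFITM1, 22.7% for IFITM2, 21.3% for IFITM3, 20.9% for SP110, 10.7% for TRIM22 and 10.3% for IFIT2, and under 10% for the others. Among the pathway genes called, PIAS1 shared 32.3%, HLA-F 28.5%, IER3 26.5%, ICAM1 23.6% and IRF1 22.0%. PSMB8 shared 20.6%, IRF3 19.3%, HLA-B 18.9% and TBK1 14.7%, and the others less, apart from IRF9, given above. The counts of these genes carry the same limit. USP41, a near copy of USP18, had 1 count in vehicle replicate 2 and 0 in the other samples.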

How the data were processed

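RNA of MDA-MB-231 cells treated with vehicle or SCH (3 samples each) was purified with poly-T beads and sequenced on an Illumina HiSeq. The submitters' processing notes name CASAVA 1.8, HISAT2 2.0.5, featureCounts 1.5.0-p3, DESeq2 1.20.0 and GRCh38, and the gene identifiers, with the spans of the interferon-stimulated genes, are those of GENCODE 29. Raw, unnormalized gene counts were deposited, with FPKM values for each sample, which were 0.937 to 1.01 times the values that count, gene length and total count give (0.937 to 0.941 for SCH, 0.995 to 1.01 for vehicle). Whether strand was used in counting is not given in the sources used here.

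Differential expression was tested on these counts with edgeR 4.0.16 in R 4.3.3 (filterByExpr, TMM, quasi-likelihood fit and two-sided test of SCH against vehicle, no covariates, Benjamini-Hochberg adjustment over 14736 tested genes, threshold 0.05). SE was obtained from the F statistic as |log2 fold change|/√F. The common biological coefficient of variation was 5.17%. No replicate was a copy of another: chi-square per degree of freedom between replicates was 2.05 to 5.29. CPM values use TMM-scaled library sizes. Ratios were tested with an exact two-sided permutation test (SciPy 1.17.1), promoters were searched in Python 3.11.15, and scripts were tested on simulated data.

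The members and lists were chosen with earlier results of these data known. Values in every sample are given for the member of smallest p and of highest FPKM in each role group, the 5 largest rises and falls with a mean count of at least 10 (only 3 fell), all tested members of the IFIT, OAS, MX and IFITM families, 15 preset pathway genes and the 2 smallest p per pathway list. Some genes of the pathway and marker lists are not reported here, and the list counts leave them out. DDX60 was added after its values were seen. Alternatives were RLE, library size only, upper quartile, no filter, DESeq2 1.42.0, a minimum of 10 counts in every sample, limma 3.58.1 on log2(FPKM + 1) and log2(FPKM + 0.1), a replicate block, each replicate left out, an absolute log2 fold change of at least 1 and an adjusted p under 0.01.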

Additional observations from a re-analysis of the deposited data

How the results depend on the processing

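Of the 39 tested interferon-stimulated genes, 29 were tested and had the same call under every normalization, filter, tool, block and left-out replicate tried, TRIM22 had the same call where tested but was not tested with at least 10 counts in every sample (nor was BST2), 9 crossed the threshold somewhere (IFIT5, EIF2AK2, IFITM3, UBE2L6, HERC6, SP110, IFIT1, OAS1 and BST2), and 0 of them changed sign in a setting where they were called. With library size only, 1 of the interferon-stimulated genes was lowered, their median log2 fold change was 0.33 and 3 pathway genes were lowered, in place of 3, 0.23 and 5. The count of lowered interferon-stimulated genes was 5 with upper quartile normalization and 5 with at least 10 counts in every sample, where IFIT1 and OAS1 passed. With an absolute log2 fold change of at least 1, 1292 of all genes were changed (573 raised, 719 lowered), 3 of the interferon-stimulated genes (2 raised, 1 lowered) and 12 of the pathway genes (12 raised, 0 lowered). At an adjusted p under 0.01, 3 pathway genes were lowered. Leaving out each replicate in turn gave 7808 to 8489 changed genes, 22 to 25 changed interferon-stimulated genes (20 to 21 raised, 2 to 4 lowered), medians of 0.20 to 0.29 and 45 to 48 changed pathway genes (41 to 43 raised, 3 to 5 lowered, the 3 without SCH replicate 1). BST2, at 3 counts in SCH replicate 3 and 16 in SCH replicate 2, passed only without SCH replicate 2 (−1.37). Without SCH replicate 1, IFIT5 was at −0.12 and did not pass. The causes of these shifts were not tested. DESeq2 and limma on FPKM each called 20 raised and 3 lowered. Of the pathway genes, DESeq2 did not call JAK2, IRF9, PIAS1 and ERAP2, limma did not call PIAS1 and ERAP2, and the 2 falls that ended with library size only were those of MAVS and ERAP2. ADAR passed in DESeq2 and limma and IKBKE in limma. PIAS1 did not pass without vehicle replicate 1 or 2 or SCH replicate 2 or 3 (adjusted p = 0.069 to 0.15), nor with upper quartile normalization (0.091), and HLA-F without SCH replicate 1 (0.051).

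Samples of the 2 groups share only a number: the deviations of same-numbered samples from their group means correlated at 0.046, −0.022 and 0.022 across genes, which are not independent replicates. With the replicate number as a block, 24 of the interferon-stimulated genes changed, 20 raised and 4 lowered, with a median of 0.23, the added gene being IFIT1 (−0.19, adjusted p = 0.0328). Depth limits IFITM1, CMPK2 and XAF1, which were not tested, and BST2, RTP4 and TRIM22, whose standard errors were 0.33 to 0.47.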

Other observations

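A further 22 interferon-stimulated genes, picked after the values of the data were seen, were read from the same fit, and 18 of them could be tested. Of these, 12 rose and 6 did not pass the threshold, with a median log2 fold change of 0.42, beside 29.3% of all tested genes raised and a median of −0.0034. The guanylate-binding proteins, GTPases that attack vacuoles holding pathogens, rose in all 4 that were tested. GBP2 was measured at 11.5, 12.7 and 13.8 CPM in the vehicle-treated samples and 35.8, 36.6 and 32.7 CPM in the SCH-treated samples. The groups were far apart, with SCH higher (log2 fold change 1.47, SE 0.086, adjusted p = 1.15e-12). GBP4 rose by 1.05 on the log2 scale (SE 0.16, adjusted p = 7.6e-06), GBP3 by 0.66 on the log2 scale (SE 0.065, adjusted p = 6.2e-09) and GBP1 by 0.52 on the log2 scale (SE 0.065, adjusted p = 3.35e-07).

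Of 6 genes of the PARP and ZAP group, 4 rose, while PARP9 and PARP12 did not pass. So 66.7% changed, all upward, beside 58.7% of all tested genes changed and 29.3% raised. Among the 4 were PARP14 (log2 fold change 0.82, SE 0.065, adjusted p = 2.29e-10) and PARP10 (log2 fold change 0.80, SE 0.068, adjusted p = 5.93e-10), enzymes that transfer ADP-ribose. Of 7 genes of the apolipoprotein L family and of nuclear bodies and related proteins, 4 rose and 0 fell. The 57.1% changed was near the 58.7% of all tested genes, of which 29.3% were raised. The largest rises were those of APOL2 (log2 fold change 0.68, SE 0.075, adjusted p = 5.69e-08) and TRIM21, an antibody receptor in the cytosol (log2 fold change 0.61, SE 0.078, adjusted p = 4.07e-07). The chemokines that interferon induces in immune and epithelial cells were barely detected: CXCL9 had 0 counts in all samples, CXCL10 1 to 3, CCL5 2 to 10 and CXCL11 8 to 14, and CXCL11, which alone was tested, did not pass (log2 fold change −0.33, SE 0.41, adjusted p = 0.511). Of the chemokines of the NF-kB list, CXCL8 rose by 1.39 on the log2 scale (SE 0.057, adjusted p = 2.13e-15), CCL20 rose by 1.98 on the log2 scale (SE 0.13, adjusted p = 6.01e-12), CXCL1 and CXCL2 rose, and CCL2, on 10 to 37 counts a sample, fell by 0.96 on the log2 scale (SE 0.32, adjusted p = 0.0127).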
